A study of Mus musculus with 2 samples.

Results

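The striated muscle miRNA genes examined here are Mir206, Mir133b, Mir1a-1, Mir1a-2, Mir1b, Mir133a-1, Mir133a-2, Mir208a, Mir208b and Mir499, 10 of 2202 annotated miRNA genes counted in mouse adrenal gland. They were taken by symbol as known miRNAs of skeletal muscle and heart, and the set was chosen by its counts in these same libraries, in which Mir206 led it. The levels and ratios of these genes are therefore given as a description, with no test. The tissue was adrenal gland of female B6CASTF1/J mice, F1 hybrids between C57BL/6J and CAST/EiJ, at 14 days of age. There was 1 group of 2 small RNA libraries, labelled biological replicates 2 and 1, with no treated or mutant animals and no control group. The label of replicate 2 names a single numbered female and that of replicate 1 speaks of 3 females, and both give the same donor identifier, so it is not known whether the libraries came from separate litters or pools. No miRNA gene on the lists used here is particular to the adrenal gland, so the tissue label could not be checked.

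MicroRNAs pair with messenger RNAs through their seed, bases 2 to 8 from the 5′ end, and lower the output of those messages. In striated muscle, miR-1 and miR-133 are made from shared primary transcripts in both heart and skeletal muscle, where miR-1 promotes differentiation and miR-133 is known for its effects on myoblast proliferation. The related pair miR-206 and miR-133b is made in skeletal muscle and not in heart muscle, and miR-206 is known for repressing Pax7 in muscle stem cells and Hdac4 at the nerve-muscle synapse. A further group, miR-208a, miR-208b and miR-499, sits in introns of myosin heavy chain genes and acts in the choice of myosin and of fibre type.

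RefSeq's miRNA table (build GRCm38.p6, the assembly known as mm10) held mature sequences for 6 of the 10 genes: Mir206, Mir133b, Mir1a-1, Mir208a, Mir208b and Mir499. The arms below carry the comparison between family members, with the seed in capitals. For Mir1a-1 the table held the 5p arm.
mmu-miR-206-3p: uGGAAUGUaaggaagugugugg
mmu-miR-133b-3p: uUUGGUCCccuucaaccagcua
mmu-miR-1a-1-5p: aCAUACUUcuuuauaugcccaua
mmu-miR-208a-3p: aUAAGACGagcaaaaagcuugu
mmu-miR-208b-3p: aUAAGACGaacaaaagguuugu
mmu-miR-499-5p: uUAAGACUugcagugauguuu
The seed of miR-206-3p, GGAAUGU, is the one for which the miR-1 and miR-206 family is known. Among 1738 mature entries of the table it stood in 3, those of Mir206, Mir6349 and Mir6382, and Mir6349 and Mir6382 had 0 counts in both libraries. The 3p arms of miR-208a and miR-208b share their seed, UAAGACG, and were identical at 19 of 22 positions, with G10A, A16G and C18U separating miR-208a from miR-208b (positions from 1 at the 5′ end, U for T). The seed of miR-499-5p, UAAGACU, was identical to that of miR-208b-3p at 6 of 7 bases, with G8U between them, so it is a neighbour of that family by seed and not a member.

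The hairpin of Mir206, the gene with the most counts of the set, is shown with its 5p and 3p arms in capitals, together with those of the myosin-gene members that gave counts in both libraries.
Mir206 hairpin: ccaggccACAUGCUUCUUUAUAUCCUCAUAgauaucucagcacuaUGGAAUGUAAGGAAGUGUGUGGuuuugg
Mir499 hairpin: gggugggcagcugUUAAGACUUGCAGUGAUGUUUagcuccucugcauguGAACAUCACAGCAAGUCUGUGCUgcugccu
Mir208b hairpin: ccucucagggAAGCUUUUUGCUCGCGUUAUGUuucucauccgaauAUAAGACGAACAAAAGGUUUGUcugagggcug
A gene has a single count, to which reads of either arm contribute. The 3p arm of miR-206 differed by 4 bases or more from every hairpin annotated elsewhere in the genome, the nearest being those of Mir1a-1, Mir1a-2 and Mir1b. Its 5p arm differed by at least 3 bases. The 5p arm of miR-499 stood 4 bases from its nearest hairpin, Mir7055, and the 3p arms of miR-208a and miR-208b stood 3 bases from each other. The 3p arm of miR-133b stood 1 base from Mir133a-1 and Mir133a-2, and its 5p arm stood 3 bases from them.

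Mir206 (ENSMUSG00000065559.1) is on the plus strand of chromosome 1, bases 20679010 to 20679082 of mm10 in GENCODE M21. Mir133b (ENSMUSG00000065480.1) follows on the same strand from 20682769 to 20682887, with 3686 bases between them, and both overlap exons of the lincRNA gene Gm28653. Mir499 (ENSMUSG00000076312.1) lies on chromosome 2 from 155622880 to 155622958, in an intron of Myh7b. Mir208a (ENSMUSG00000065432.1) and Mir208b (ENSMUSG00000077928.1) lie on the minus strand of chromosome 14, from 54949060 to 54949142 in an intron of Myh6, and from 54975700 to 54975776 in an intron of Myh7. Mir1a-1 (ENSMUSG00000070144.1) and Mir133a-2 (ENSMUSG00000065460.1) lie on the plus strand of chromosome 2 from 180389048 to 180389124 and from 180398379 to 180398482, with 9254 bases between them and no host gene annotated over either. Mir133a-1 (ENSMUSG00000065399.2) and Mir1a-2 (ENSMUSG00000106348.1) lie on the minus strand of chromosome 18, from 10782909 to 10782976 and from 10785481 to 10785552, in introns of Mir133a-1hg and antisense to an intron of Mib1. Mir1b (ENSMUSG00000080662.1) lies opposite Mir1a-2, from 10785446 to 10785567 on the plus strand.

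The counts on miRNA genes came to 5034257 for replicate 2 and to 3797107 for replicate 1. Multi-mapping reads, which the authors' tables list apart from the genes, numbered 2795730 for replicate 2 and 3002371 for replicate 1. Levels are in CPM, counts scaled to a common total of all miRNA counts. Log2 ratios and fold differences between libraries are further scaled by TMM factors, so their direction can differ from that of the CPM values. A gene with 0 counts may still have had up to 3, which is 0.596 CPM in replicate 2 and 0.790 CPM in replicate 1. No molecular identifiers are stated, so all intervals and limits speak of counting error alone. The mature arms listed for the members were all 21 to 23 bases long, so counts of different genes are set side by side without a length correction.

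Most of the counts assigned to the 10 genes fell on Mir206, and most of them came from replicate 2. The 10 genes together had 7901 counts in replicate 2, a share of 0.157% of all miRNA counts (Wilson 95% interval 0.154 to 0.160), and 124 counts in replicate 1, a share of 0.00327% (0.00274 to 0.00389). Their mean share was 0.0801% ± 0.109 (SD, n = 2), an SD larger than the mean. The summed level was 64.5-fold higher in replicate 2 (95% counting interval 54.2 to 77.9). Of the members' counts, Mir206 made up 98.9% in replicate 2, with a Wilson interval of 98.7 to 99.1, and 85.5% in replicate 1, with one of 78.2 to 90.6. In bulk tissue, fewer cells of a type and less RNA per cell cannot be told apart.

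**Figure D1:**
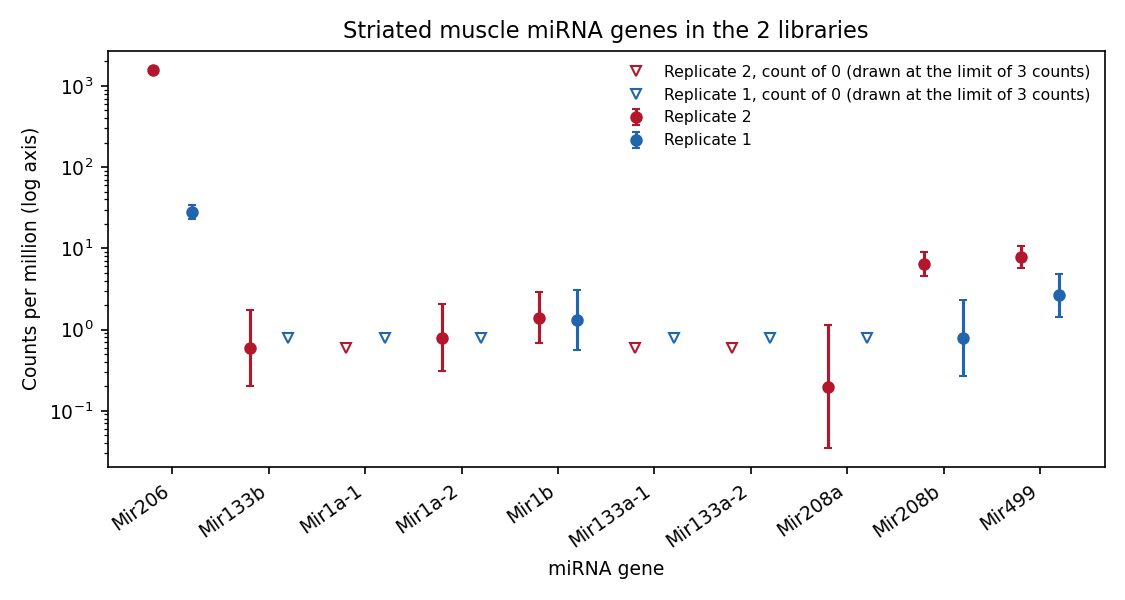
Level of each striated muscle miRNA gene in CPM (log axis) in replicate 2 (red) and replicate 1 (blue), with Wilson 95% intervals; open triangles mark counts of 0, drawn at the limit of 3 counts. Mir206 stands at 1552 CPM in replicate 2 and 27.9 CPM in replicate 1, and every other gene stays below 8 CPM in both.

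Among the skeletal members, Mir206 had 7815 counts in replicate 2, or 1552 CPM (Wilson 95% interval 1518 to 1587), and 106 counts in replicate 1, or 27.9 CPM (23.1 to 33.8). It was the 54th most abundant miRNA gene in replicate 2 and the 253rd in replicate 1, and its mean level was 790 ± 1078 CPM (SD, n = 2). The log2 ratio of replicate 2 over replicate 1, scaled by TMM factors, was 6.22 (95% counting interval 5.95 to 6.52), a 74.6-fold difference in level. Its cluster neighbour Mir133b, which lies in the same host transcript, had 3 counts in replicate 2 and 0 in replicate 1, both at or under the limit of 3 counts, so no ratio is given. The neighbours thus differed in counts by 7815 against 3 within replicate 2, but Mir133b shares sequence with copies elsewhere and its count is uncertain.

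The members grouped here as miRNAs of both heart and skeletal muscle gave few counts. Mir1b is grouped with them although it lies on the strand opposite Mir133a-1hg. Neither library had a count on Mir133a-1, Mir133a-2 or Mir1a-1 (0 in replicate 2 and 0 in replicate 1). Mir1a-2 had 4 counts in replicate 2 and 0 in replicate 1, and Mir1b, on the other strand of the same place, had 7 in replicate 2 and 5 in replicate 1. The 5 genes together came to 11 counts in replicate 2 (2.19 CPM) and 5 in replicate 1 (1.32 CPM). Mir1b gave 7 and 5 of these. The counting interval of the summed log2 ratio, -0.48 to 3.04 around 1.09, spanned 0 and rests mostly on Mir1b. Reads of such copies may map to several places, and the tables do not say how many of the multi-mapping reads came from these genes, so their low counts do not measure how much miR-1 and miR-133a the gland held.

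Among the members in myosin genes, Mir499, within the slow-type myosin gene Myh7b, had 39 counts in replicate 2, or 7.75 CPM (Wilson 95% interval 5.67 to 10.6), and 10 counts in replicate 1, or 2.63 CPM (1.43 to 4.85). Its log2 ratio was 1.93 (95% counting interval 0.96 to 3.15), so the interval reached just below a 2-fold difference. Mir208b, of the slow and beta-cardiac myosin gene Myh7, had 32 counts in replicate 2, or 6.36 CPM (4.50 to 8.97), and 3 counts in replicate 1, or 0.790 CPM (0.269 to 2.32), at the limit. Its ratio was 9.43-fold, with a wide counting interval of 3.39 to 55.3. Mir208a, of the alpha-cardiac myosin gene Myh6 and the member most particular to heart muscle, had 1 count in replicate 2 and 0 in replicate 1, within the limit in both. Mir499 and Mir208b thus lay above the limit in replicate 2. Their intervals hold counting error alone and the members were chosen by these same counts, so nothing is read from the difference between the libraries.

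By mean level the order was Mir206 at 790 CPM, Mir499 at 5.19 ± 3.62 CPM, Mir208b at 3.57 ± 3.94 CPM and Mir1b at 1.35 ± 0.0521 CPM (SD, n = 2). Mir1a-2 followed at 0.397 CPM, Mir133b at 0.298 CPM, Mir208a at 0.0993 CPM and the 3 genes at 0. Mir206 stood above every other member in both libraries, with intervals that did not overlap. Mir499 and Mir208b did not differ beyond their spread, and from Mir1b down no neighbours in the order could be told apart at this depth. The 6 members that share sequence with other hairpins may lose reads, so their places are an order of counts and not of level.

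A detection minimum of 10 counts in each library was met by 2 of the 10 members, Mir206 and Mir499, and Mir499 sat exactly on it with 10 counts in replicate 1. The nearest member below it was Mir208b, with 32 counts in replicate 2 and 3 in replicate 1. Both detected members were at least 2-fold higher in replicate 2. Of the 358 detected miRNA genes, 33 (9.22%) were as well, and 1.96% were at least 8-fold higher, Mir206 among them. With values of these libraries having chosen the members, nothing is read from those counts. By size of the ratio, Mir206 was placed 2 among the 358 genes and Mir499 was placed 12, while the median log2 ratio of all detected genes was -0.06.

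**Figure D2:**
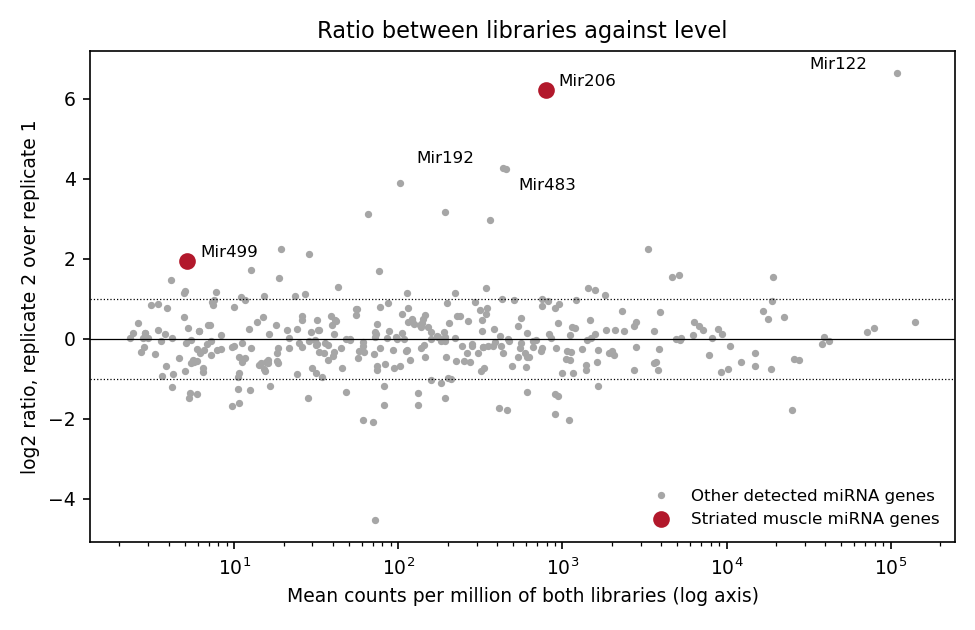
Log2 ratio of replicate 2 over replicate 1 against mean CPM (log axis) for the 358 detected miRNA genes, with dotted lines at a 2-fold difference. Mir206 at 6.22 and Mir499 at 1.93 are marked in red, and Mir122 is the only gene above Mir206.

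The makeup of the set also differed between the libraries, in a measure that needs no scaling. Mir206 had 109 counts for each count on the 3 myosin-gene members in replicate 2 (exact 95% interval 86.1 to 139), and 8.15 in replicate 1 (4.57 to 15.8). The ratio of these values was 13.3 (6.55 to 25.1), an interval of counting error alone. The set was chosen by these same counts with Mir206 leading it, so nothing further is read from this ratio. The 3 myosin-gene members summed to 72 counts in replicate 2 (14.3 CPM) and 13 in replicate 1 (3.42 CPM). After TMM scaling this was a 5.46-fold difference (3.09 to 11.1), against the 74.6-fold difference of Mir206. Within that group, Mir208b had 0.821 counts per count of Mir499 in replicate 2 (0.498 to 1.34) and 0.300 in replicate 1 (0.0531 to 1.17), and the interval of the ratio between libraries, 0.625 to 16.6, spanned 1.

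Members differed in how much sequence they share with hairpins elsewhere in the genome. Comparing all annotated miRNA hairpins on both strands, 6 of the 10 members shared a run of at least 18 bases with another gene: Mir1a-1, Mir1a-2 and Mir1b (28 bases), Mir133a-1 and Mir133a-2 (31 bases) and Mir133b (21 bases, with Mir133a-1 and Mir133a-2). The longest such run was 13 bases for Mir206 and Mir499 and 14 for Mir208a and Mir208b. The 6 genes with a shared run had between 0 and 7 counts in either library, and none met the detection minimum. Of the 4 genes without one, 2 met it. Across all 2202 genes, 8.11% of the 1135 that share such a run were detected, against 24.9% of the 1067 that share none, and 86.0% of genes with a run had 0 counts in both libraries against 40.8% of genes without. The members with no shared run of that length were thus Mir206, of skeletal muscle, and the myosin-gene members Mir208a, Mir208b and Mir499, while the other 6 are copies that may lose reads. The 5p arm of miR-133b differs from its copies at 3 bases, as many as separate the 3p arms of miR-208a and miR-208b.

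**Figure D3:**
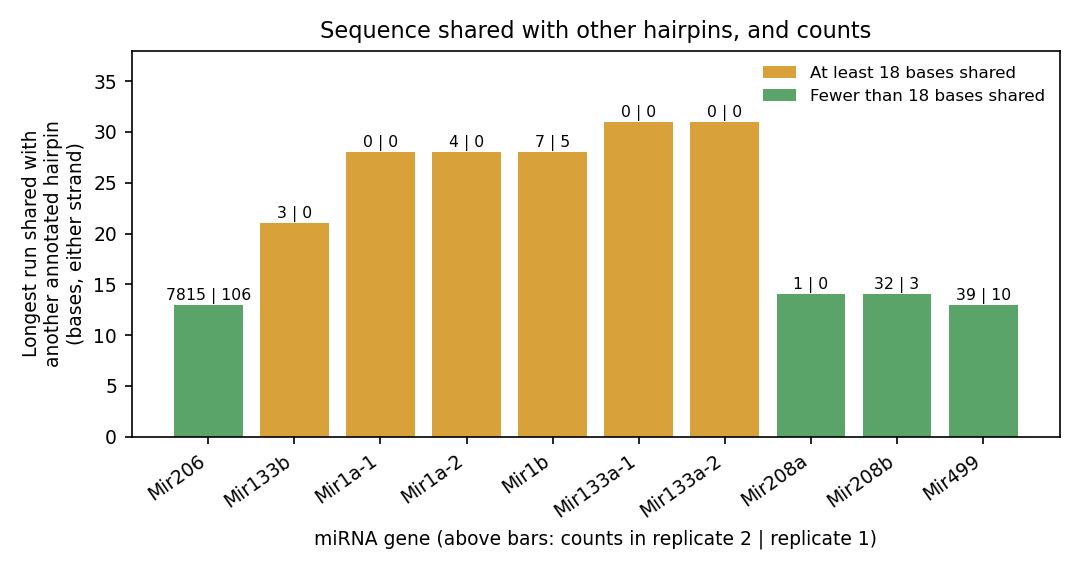
Longest run of bases that each member's hairpin shares, on either strand, with another annotated hairpin, with the counts in replicate 2 and replicate 1 above each bar. The 6 genes with a run of at least 18 bases have at most 7 counts, and Mir206, with 7815 and 106, shares at most 13 bases.

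The 5p arm of miR-1a-1 stood at least 2 bases from every hairpin annotated elsewhere, so it can in principle be told from Mir1a-2, yet Mir1a-1 had 0 counts in both libraries. This arm is known as the one that usually does not accumulate. For Mir1a-2 and Mir1b, which overlap on opposite strands, the counts made without regard to strand were 0 in replicate 2 and 0 in replicate 1. Counting without strand listed 1162285 reads as ambiguous in replicate 2 and 959702 in replicate 1. In the column used, these were 1 and 0. Reads over both genes may be among the ambiguous ones, so these zeros are not read as an absence of reads. The other 8 members had the same counts with and without regard to strand, and 0 counts on the opposite strand.

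Genes with the most similar pattern were those with a mean of at least 100 counts whose log2 ratio lay closest to that of Mir206, a likeness over 2 libraries only. They were Mir122, the main miRNA of hepatocytes, at 6.64, Mir192 of liver, kidney and gut at 4.28, Mir483 in the Igf2 gene at 4.24, the epithelial Mir200b at 3.90, and Mir194-2 at 3.18. Only Mir122 came within 1 log2 unit of Mir206. Mir206 had 7.24 counts per 1000 counts of Mir122 in replicate 2 (exact 95% interval 7.08 to 7.40) and 9.64 in replicate 1 (7.89 to 11.7). The ratio of these values was 0.751, with an interval of 0.619 to 0.919 that did not reach 1. Mir122 was named because its log2 ratio lay nearest to that of Mir206, so no likeness is read from this value. Mir122 itself had 1080041 counts in replicate 2 and 10996 in replicate 1.

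Genes at a like mean level did not show a like ratio. The set was chosen by these same counts with Mir206 leading it, so nothing further is read from this contrast. Next above Mir206 in mean level stood Mir328, with 739 CPM in replicate 2 and 918 CPM in replicate 1, and Mir615, with 956 CPM in replicate 2 and 676 CPM in replicate 1. Next below stood Mir148a, with 896 CPM in replicate 2 and 611 CPM in replicate 1, and Mirlet7c-2, with 845 CPM in replicate 2 and 649 CPM in replicate 1. Their TMM-scaled log2 ratios lay between 0.12 and 0.98. The lowest was that of Mir328, which was lower in replicate 2 by CPM but not after TMM scaling.

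Among all 358 detected genes, 33 were at least 2-fold higher in replicate 2 and 31 were at least 2-fold lower. Of 18 widely expressed miRNA genes that have been studied in muscle differentiation, all 18 were detected. Of these, 3 were at least 2-fold higher in replicate 2, 4 were at least 2-fold lower and 11 lay within 2-fold. Their median log2 ratio was -0.04, beside -0.06 for all detected genes. The higher ones were Mir22 at 1.53, Mir675, made from the H19 transcript, at 1.14, and Mir214, which represses Ezh2 in myoblasts, at 1.09. The lower ones were Mir26a-1 at -4.54, Mir222 at -1.65, Mir181a-1 at -1.48 and Mir221 at -1.34. Mir26a-1 and Mir181a-1 are numbered copies whose counts are uncertain. The same holds for Mir24-1, Mir29b-1 and Mir125b-1 of this list, which lay within 2-fold. It also holds for Mir194-2, Mir365-1 and Mirlet7c-2, named in other comparisons here. Mir378a, the most abundant of the list, had 65234 CPM in replicate 2 and 77614 CPM in replicate 1. Its log2 ratio after TMM scaling was 0.18, the opposite direction to its CPM values. The list as a whole took 11.3% of counts in replicate 2 and 12.9% in replicate 1, and so did not show the difference seen for Mir206. Most of that share was Mir378a, with 328406 of the list's 566833 counts in replicate 2 and 294709 of 491100 in replicate 1.

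Markers of other cell types are given beside these values. Across the 358 detected genes, 33 (9.22%) were at least 2-fold higher in replicate 2 and 31 were at least 2-fold lower. The liver list summed to 215691 CPM in replicate 2 and 3003 CPM in replicate 1, with 3 of 4 genes detected and all 3 at least 2-fold higher in replicate 2. Of 7 epithelial genes, 4 were at least 2-fold higher, 1 was at least 2-fold lower and 2 lay within 2-fold. The list summed to 1125 CPM in replicate 2 and 1590 CPM in replicate 1. Mir203, at a log2 ratio of -0.54, gave most of that sum, with 749 CPM in replicate 2 and 1465 CPM in replicate 1. For brown fat, which can lie beside the gland, 2 of 3 listed symbols, Mir365-1 and Mir455, were annotated. Both were detected and lay within 2-fold, and their sum was 1490 CPM in replicate 2 and 1455 CPM in replicate 1. The listed symbol Mir193 had no match. The annotated Mir193a and Mir193b, with log2 ratios of 1.14 and 0.71, were not in the list or its sum. Smooth muscle genes summed to 32652 CPM in replicate 2 and 46450 CPM in replicate 1, with Mir145a at a log2 ratio of 1.27 and Mir143 at -0.13. Endothelial Mir126a had a log2 ratio of 0.41. The erythroid list summed to 560 CPM in replicate 2 and 2236 CPM in replicate 1, most of it Mir451a, with 338 CPM in replicate 2 and 1859 CPM in replicate 1. Mir451a had a log2 ratio of -2.03, while Mir144 at -0.37 and Mir486 at -0.12 lay within 2-fold. The part of any other tissue in the difference of Mir206 was not tested.

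**Figure D4:**
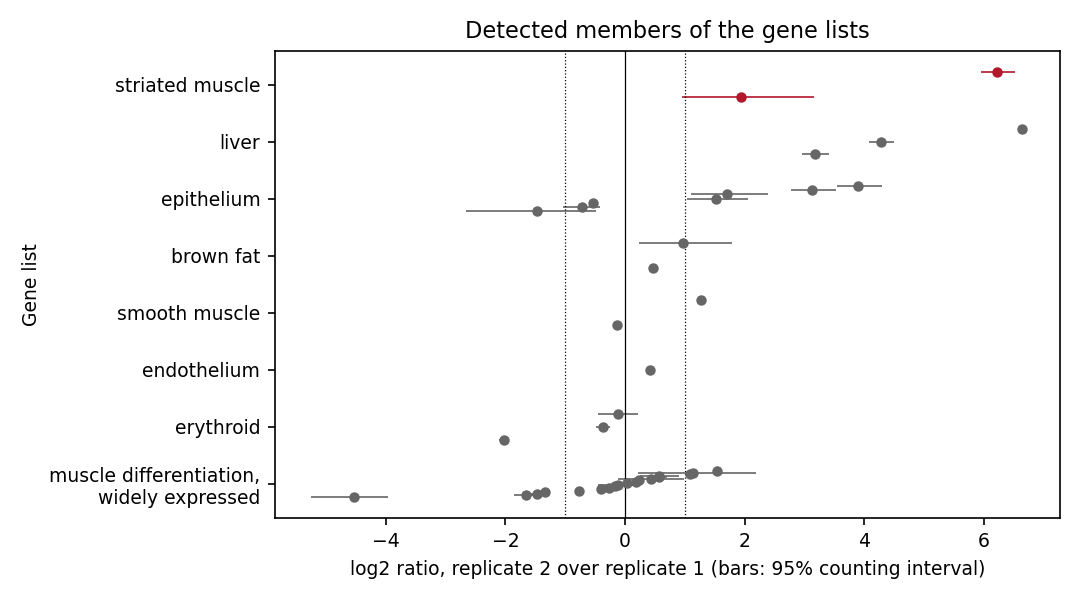
Log2 ratio of replicate 2 over replicate 1 for each detected gene of the gene lists, with 95% counting intervals and dotted lines at a 2-fold difference. The striated muscle genes (red) stand at 6.22 and 1.93 and the liver genes between 3.18 and 6.64. The 2 brown fat genes drawn and the endothelial gene lie within 2-fold. Mir193a and Mir193b were not on the brown fat list and are not drawn.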

How the data were processed

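The deposited tables hold raw, unnormalized counts for each miRNA gene, 1 table a library. The build was mm10 and the annotation GENCODE M21, per the text files that accompany the deposited tables. The sources used here name no aligner, counter or trimming. Of the 3 count columns, which carry no header, the third column of the file (the more populated strand) was used. Library sizes leave out the 4 summary lines. Members and lists were chosen with earlier results of these data known. Each ratio sets replicate 2 over replicate 1, scaled by TMM (edgeR 4.0.16, factors 0.862 for replicate 2 and 1.16 for replicate 1) over genes with at least 10 counts in each library, and a prior count of 0.5. Ratio intervals are exact Clopper-Pearson 95% intervals, and shares carry Wilson intervals. Named were all members, the 5 genes closest to Mir206 in ratio, 2 on each side in level, and up to 4 leading genes per list. Further list members past 2-fold, and Mir193a and Mir193b, were named after their values were seen. Hairpins came from GENCODE and printed sequences from RefSeq. The ratio and its interval were tried on simulated Poisson counts, which hold counting error alone and so cannot speak of spread between animals. Alternatives were library totals, DESeq2 1.42.0 size factors, the unstranded column, thinning of replicate 2, a prior count of 5, minimums of 1 and 100 counts, totals without Mir122 or with the summary lines, and each replicate left out. Python 3.11.15, scipy 1.17.1 and R 4.3.3 were used.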

Additional observations from a re-analysis of the deposited data

Results flagged for a closer look

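Outside the strand column used for the results, counts above the limit of 3 stood on the opposite strand of 2 members. Mir1a-2 had 7 opposite-strand counts in replicate 2 and 5 in replicate 1, and Mir1b had 4 in replicate 2. These are the counts of the overlapping partner gene on the other strand.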

How the results depend on the processing

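Scaled by library totals alone, the log2 ratio of Mir206 was 5.79 and that of the summed members 5.58, both below their counting intervals, and 19 detected genes instead of 33 were at least 2-fold higher in replicate 2. That scaling moved the median of all detected genes to -0.49, against -0.06 with TMM. The count of genes at least 2-fold higher was 76 with a minimum of 1 count, where more genes were included, and 18 with a minimum of 100. The number of members detected was 4 with a minimum of 1 count and 1, Mir206, with a minimum of 100. With each replicate left out, 2 to 3 members met the minimum and the members' share lay between 0.00327% and 0.157%, so that the mean share rests on replicate 2. The mean share, 0.0801%, was 0.0359% with the summary lines in the total, 0.102% over totals without Mir122 and 0.104% in the unstranded column. The ratios of Mir206, Mir499 and the summed members stayed positive under every scaling, prior count and strand column tried, and under thinning. No paired analysis was possible because there is 1 group. Depth limits every member but Mir206: by counting error alone, a count of 0 allows up to 0.596 CPM in replicate 2 and 0.790 CPM in replicate 1. The 6 members that share a run with another hairpin may also lose reads to multi-mapping. For them these values are no upper limit of the level. The meaning of the count columns was read from the values.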
